A study of Mus musculus with 8 samples.

Results

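The immunoglobulin chain probes of a whole-transcriptome mouse array were examined in liver after neonatal removal of the thymus. Of 56605 gene probes in the deposited table, 246 carried a description naming an immunoglobulin heavy, kappa or lambda chain or a gene symbol with an immunoglobulin prefix; these stood for 212 of 27093 gene or segment names. Of the 246 probes, 20 matched constant regions, 215 matched variable segments and 1 matched the surrogate light chain gene Igll1. The other 10 matched genes that are not immunoglobulin chains but carry a search term in their description or symbol. The 20 constant region probes covered 11 regions and the 215 variable probes covered 195 named segments. Only 20 of the 246 probes had a gene symbol in the table, and 232 were found through their description alone.

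Whole liver came from female mice of the NFS/sld strain, which develops salivary gland disease resembling primary Sjögren's syndrome when the thymus is removed shortly after birth. The first group (Tx) was thymectomized on day 3 of life and its liver was taken 8 weeks after the operation. The second group (nonTx) was of the same sex and strain and kept its thymus; the labels give no sham operation and no separate age for it. Each group had 4 samples on one-colour Agilent arrays, called independent replicates in the labels without naming animals, and a p-value here reflects only how far these arrays vary among themselves. In whole tissue fewer cells of a type and less RNA per cell cannot be told apart.

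Antibodies are built from heavy chains paired with kappa or lambda light chains. A variable region, assembled by joining gene segments in each developing B cell, binds antigen, whereas the heavy chain constant region sets the class. Naive B cells carry the mu and delta constant regions, class switching replaces these with gamma, epsilon or alpha, and plasma cells transcribe the chosen chains at very high levels. On chromosome 12 the RefSeq annotation (GRCm38.p6) lists the heavy constant regions in the order Ighm, Ighd, Ighg3, Ighg1, Ighg2b, Ighg2c, Ighe and Igha. Igkc lies on chromosome 6, and Iglc3 and Iglc1 lie on chromosome 16. Mouse strains carry either Ighg2a or Ighg2c, and the labels do not say which NFS/sld mice carry, so signals of the Ighg2c probes may come from either. Near-identical variable segments can bind the same probe, so the identity of a single segment is uncertain.

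Testing required a signal well above background on 3 or more of the 4 arrays in either group, and 30957 probes met this. Signals are given as scaled signal, the background-subtracted intensity divided by the array's 75th percentile and multiplied by the mean percentile of the 8 arrays, 399. Differences are log2, Tx minus nonTx, with the standard error of the limma fit across all tested probes and its Benjamini-Hochberg adjusted p. At an adjusted p of 0.05, limma called 0 of 30957 probes (0.0%), while 1743 higher probes (5.63%) and 2223 lower probes (7.18%) had an unadjusted p under 0.05. The smallest adjusted p in limma, 0.0749, was shared by 5 probes, and probes for Igha and Igkc were among them. The median difference of all tested probes was -0.01 and became 0.11 when arrays were scaled to their median, and all 10 spike-in RNAs were higher in Tx, by 0.03 to 0.35. All 10 hepatocyte markers were measured. Tx replicates 2 and 4 stood apart. Without Tx replicate 2 limma called 196 of 30865 probes (0.635%), and the summed signal of salivary gland secretory genes was 115800 in Tx replicate 4 against 1246 to 1919 on the other 7 arrays. All arrays were on 1 slide, with the nonTx arrays in one row and the Tx arrays in the other, so position and group cannot be told apart.

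Constant region probes were mostly higher in Tx liver, whereas variable segment probes were spread to both sides. Of the 20 constant region probes, 17 were tested (85.0%, against 54.7% of all probes), 15 of these through both groups and 2 through Tx alone. Of the 17 tested, 15 were higher and 2 lower in Tx, against 48.2% of all tested probes being higher. Every Tx array was above every nonTx array for 9 of the 17, against 3.6% of all tested probes, and 0 of the 17 lay entirely below, against 4.02%. An unadjusted p under 0.05 was reached by 11 higher (5.63% of all tested probes) and 0 lower probes (7.18%). The median difference was 0.82, with a range from -0.12 to 2.53. Over all 20 probes without a filter, 18 were higher (33156 of 56599 over all probes) and the median was 0.61 (0.07 over all probes). Over the 15 that passed through both groups, 13 were higher, 8 were higher on every Tx array and the median was 0.63. All 15 were well above background on all 8 arrays. Of all 27055 such probes, 14109 were higher and 3.99% were higher on every Tx array.

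**Figure D1:**
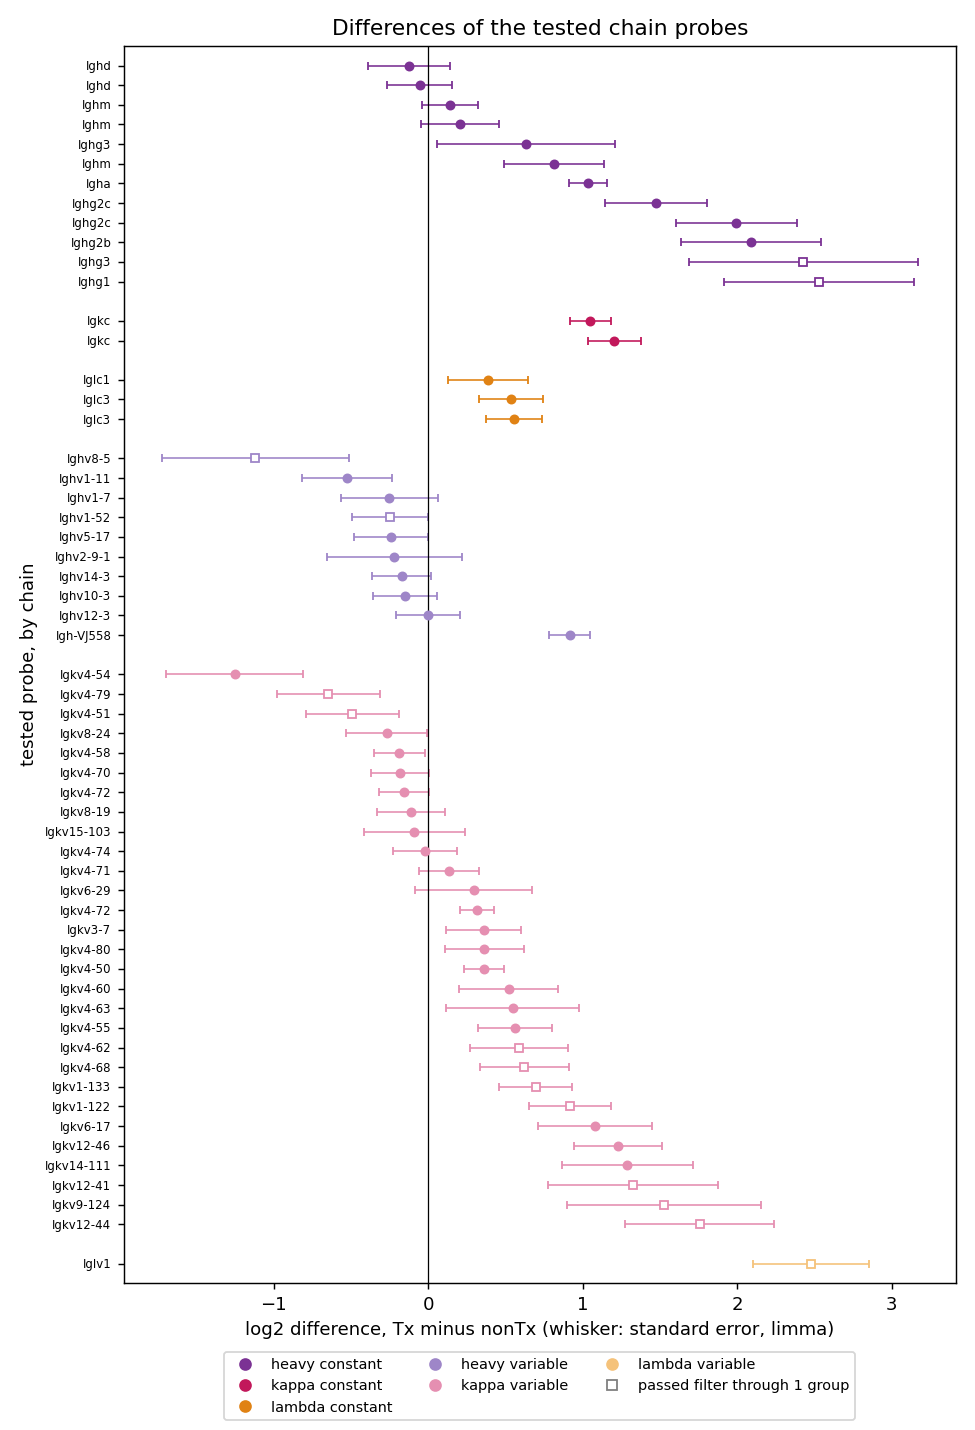
Log2 difference between Tx and nonTx (horizontal axis, with standard errors) for each of the 57 tested chain probes, ordered by chain. Filled circles passed the signal filter in both groups and open squares in 1 group only. The gamma, alpha and kappa constant regions lie to the right of 0, the Ighd probes lie near 0, and 9 of the 10 heavy variable probes lie at or to the left of 0.

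Among the classes of naive B cells, the brightest Ighm probe was higher on every Tx array, the other 2 Ighm probes overlapped between groups, and both Ighd probes were lower on average with overlapping groups. Ighm, the constant region of IgM, had a scaled signal of 643, 432, 570 and 591 on the nonTx arrays and of 763, 2154, 660 and 827 on the Tx arrays. Every Tx array was above every nonTx array, and Tx replicate 2 was far above the others. The difference was 0.82 ± 0.33 (limma, adjusted p = 0.355) and was 0.43 without Tx replicate 2. The other Ighm probes were at 0.20 ± 0.25 and 0.14 ± 0.18, with 1 and 2 Tx arrays above the nonTx range. On the last of these Tx replicate 2 was the lowest of the 8 arrays, at a scaled signal of 152. Ighd, the constant region of IgD, had a scaled signal of 295.5, 147, 218 and 149 in nonTx and of 277, 159.5, 143 and 159 in Tx. The groups overlapped, with 1 high array in each. The difference was -0.12 ± 0.27 (limma, adjusted p = 0.854), the other Ighd probe was at -0.06, and the sign turned to 0.08 without nonTx replicate 1.

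The gamma constant regions, which make the IgG subclasses, had the largest differences among the constant regions apart from the brighter Ighg3 probe, and Tx replicate 2 was the highest array for 6 of 6 tested gamma probes. All 6 were higher in Tx, 4 of them on every array (3.6% of all tested probes), with a median of 2.04. Of the 6, however, 2 had passed the filter through Tx alone. The 4 that passed through both groups were higher, with a median of 1.73. On every array 3 of these 4 were higher (3.99% of all probes well above background on all 8 arrays). Ighg2c had a scaled signal of 89.9, 113, 79.6 and 125 in nonTx and of 291, 1046, 255 and 330 in Tx. The lowest Tx array was above the highest nonTx array. The difference was 1.995 ± 0.39, or 3.98-fold (limma, adjusted p = 0.181), and a second probe gave 1.47 ± 0.33 (limma, adjusted p = 0.253). Ighg2b had a scaled signal of 26.1, 31.4, 24.8 and 34.4 in nonTx and of 89.5, 369, 64.4 and 108 in Tx. Again the groups did not overlap. The difference was 2.09 ± 0.45, or 4.26-fold (limma, adjusted p = 0.230), and was 1.15 with normexp background correction, which adds an offset of 50 to every signal.

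Ighg1 and Ighg3 were near background in nonTx liver and their values were less even. Ighg1 had a scaled signal of 3.17, 15.3, 2.65 and 2.79 in nonTx and of 31.1, 47.6, 21.8 and 12.4 in Tx, and was well above background on 1 nonTx array and 3 Tx arrays. The groups overlapped, since nonTx replicate 2 was above Tx replicate 4. The difference was 2.53 ± 0.62 (limma, adjusted p = 0.270), but this probe passed the filter through Tx alone and the difference was 0.50 with normexp. The brighter Ighg3 probe had a scaled signal of 42.3, 40.6, 41.5 and 27.8 in nonTx and of 38.8, 253, 34.2 and 34.0 in Tx. Only Tx replicate 2 was above the nonTx arrays. The difference was 0.63 ± 0.58 (limma, adjusted p = 0.632) and became -0.08 without that array. The dimmer Ighg3 probe, well above background on 0 nonTx arrays and 3 Tx arrays, had a scaled signal of 9.997, 4.08, 5.13 and 2.99 in nonTx and of 20.1, 145, 16.5 and 10.9 in Tx. Its groups did not overlap, and it passed the filter through Tx alone. Against a floor it was 4.99-fold higher in Tx (limma, adjusted p = 0.307), or 2.85-fold without Tx replicate 2. The floor fold sets the brighter group's mean against the lowest signal well above background on each dim array. Where the probe's own signal was higher, that signal was used instead. It is no lower limit. On nonTx replicate 1 this probe was above that lowest signal yet not well above background.

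Igha, the constant region of the mucosal class IgA, was higher in Tx on every array with little spread. Its scaled signal was 1191, 1070, 855 and 1149 in nonTx and 2315, 2332, 1840 and 2237 in Tx. The difference was 1.04 ± 0.12, or 2.05-fold (limma, adjusted p = 0.0749), and it ranged from 0.93 to 1.12 when each array was left out in turn. For the second Igha probe and the probe of Ighe, the constant region of IgE, none of the 8 arrays showed signal well above background.

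**Figure D2:**
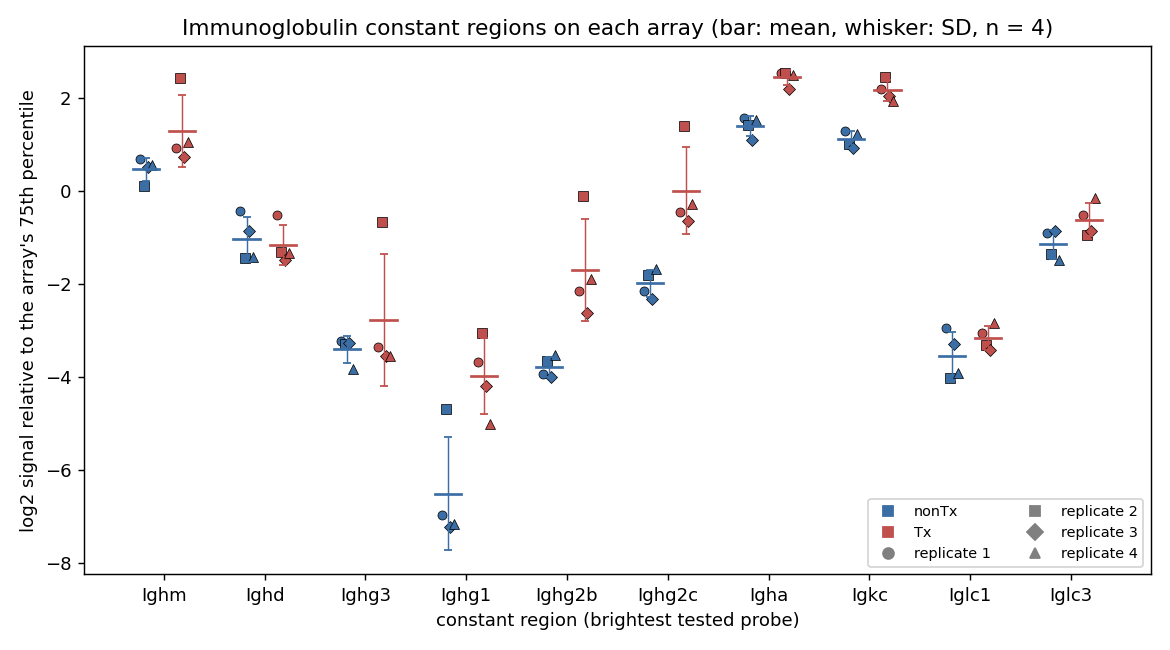
Log2 signal relative to the array's 75th percentile (vertical axis) of the brightest tested probe of each constant region, with 1 marker per array, the group mean as a bar and the SD as a whisker (n = 4 per group). Heights cannot be compared between probes. The groups do not overlap for Ighm, Ighg2b, Ighg2c, Igha and Igkc, and the Tx replicate 2 squares lie above the other Tx arrays for Ighm and the gamma regions.

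Of the light chains, the kappa constant region was higher on every Tx array, and the lambda constant probes had differences of 0.38 to 0.55. Igkc had a scaled signal of 983, 803, 754 and 932 in nonTx and of 1831, 2196, 1652 and 1536 in Tx. All Tx arrays were above all nonTx arrays. The difference was 1.05 ± 0.13, or 2.07-fold (limma, adjusted p = 0.0749), and the second Igkc probe was at 1.21 ± 0.17 (limma, adjusted p = 0.0870). Iglc3 had a scaled signal of 215, 155, 219 and 142 in nonTx and of 279, 208, 220 and 360 in Tx. These groups overlapped at Tx replicate 2. The difference was 0.54 ± 0.21 (limma, adjusted p = 0.349), while a second Iglc3 probe, at 0.55 ± 0.18 (limma, adjusted p = 0.322), did not overlap. Iglc1 had a scaled signal of 51.5, 24.3, 40.6 and 26.4 in nonTx and of 47.6, 40.1, 37.0 and 55.4 in Tx. The ranges overlapped widely, and the difference was 0.38 ± 0.26 (limma, adjusted p = 0.519), or 0.22 with normexp or without nonTx replicate 2 and 0.58 without nonTx replicate 1. Tx replicate 4 was the highest array for all 3 lambda constant probes, and without it the Iglc3 difference was 0.38.

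Without Tx replicate 2, limma called 7 chain probes, all higher in Tx, against 0.395% of 30865 probes called higher. Among 15 constant region probes tested in that fit, 6 were called, and among 33 variable probes 1 was called. Ighg2c was 2.89-fold higher with an adjusted p of 0.00836 in limma, and its second probe was 2.15-fold higher with 0.0436. Ighg2b was 2.95-fold higher (limma, adjusted p = 0.0158). Igha was 2.004-fold higher (limma, adjusted p = 0.0151). Igkc was 1.93-fold higher (limma, adjusted p = 0.00957), and its second probe was 2.07-fold higher with 0.00997. The variable probe was that of Igh-VJ558, at 1.96-fold (limma, adjusted p = 0.0277). The folds of the gamma regions were smaller than with all arrays, since the array left out was their highest, while that of Igha differed little from its 2.05-fold with all arrays. With any 1 of the other 7 arrays left out instead, limma called 0 chain probes, the smallest adjusted p of a constant region probe running from 0.0571 to 0.219. Without Tx replicate 4, in which the salivary gland genes were high, 15 of 17 constant region probes were higher, 10 were above on every Tx array (4.4% of all probes in that fit) and the median was 0.89.

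Each constant region was then set against Igkc on the same array, to ask whether classes differed by more or less than the kappa chain. Of 9 comparisons, 0 passed an adjusted p of 0.05, and with 4 arrays against 4 the exact two-sided permutation test cannot go below 0.0286. Relative to Igkc, Ighg2c was higher in Tx by 0.94 (exact permutation p = 0.0286, adjusted p = 0.129). Ighg2b was higher by 1.04 (exact permutation p = 0.0571, adjusted p = 0.171). Ighg1 was higher by 1.48 (exact permutation p = 0.114, adjusted p = 0.206), with 3 of the 4 nonTx arrays not well above background for Ighg1. Since the Ighg1 probe passed the filter through Tx alone, its comparison cannot be read as a class difference. In the other direction, Ighd was lower relative to Igkc, with a difference of -1.17 (exact permutation p = 0.0286, adjusted p = 0.129). Igha differed from Igkc by -0.01 (exact permutation p = 0.943), the smallest of the 9 differences. Iglc1 was at -0.67, Iglc3 at -0.51, Ighg3 at -0.42 and Ighm at -0.23, with exact permutation p-values between 0.114 and 0.571. For Ighm and Ighg3, Tx replicate 2 lay above all nonTx arrays and the other Tx arrays lay at or below most of them.

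**Figure D3:**
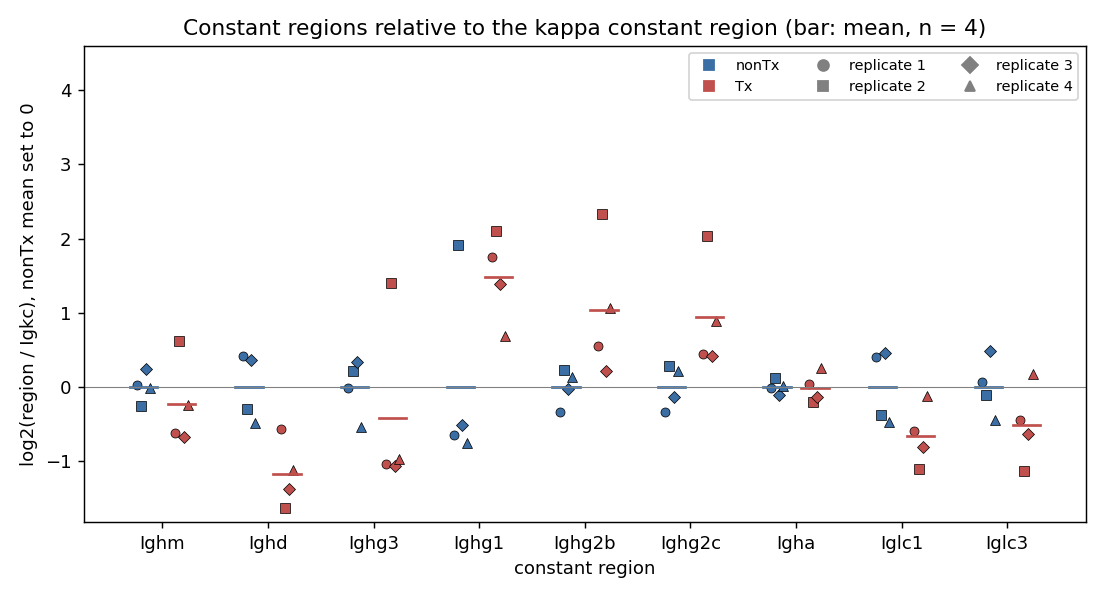
Log2 ratio of each constant region to Igkc on the same array (vertical axis), with the nonTx mean of each region set to 0; markers are arrays and bars are group means (n = 4). Every Tx marker of Ighg2c lies above the nonTx markers and every Tx marker of Ighd lies below them, while the Igha markers of both groups lie together around 0.

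Most variable segments gave no signal in liver. Of 215 variable probes, 132 were not well above background on any array and 40 were tested (18.6%), 28 through both groups, 8 through Tx alone and 4 through nonTx alone. Tested probes made up 10 of 105 at the heavy locus (9.52%) and 29 of 107 at the kappa locus (27.1%). Of 3 lambda variable probes 1 was tested. None of the 11 probes for segments that RefSeq lists as pseudogenes was tested, and 10 of these 11 had no array with signal well above background. Of the 29 tested kappa variable probes 16 belonged to the Igkv4 family, of which 28 probes were on the array (57.1% tested).

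**Figure D4:**
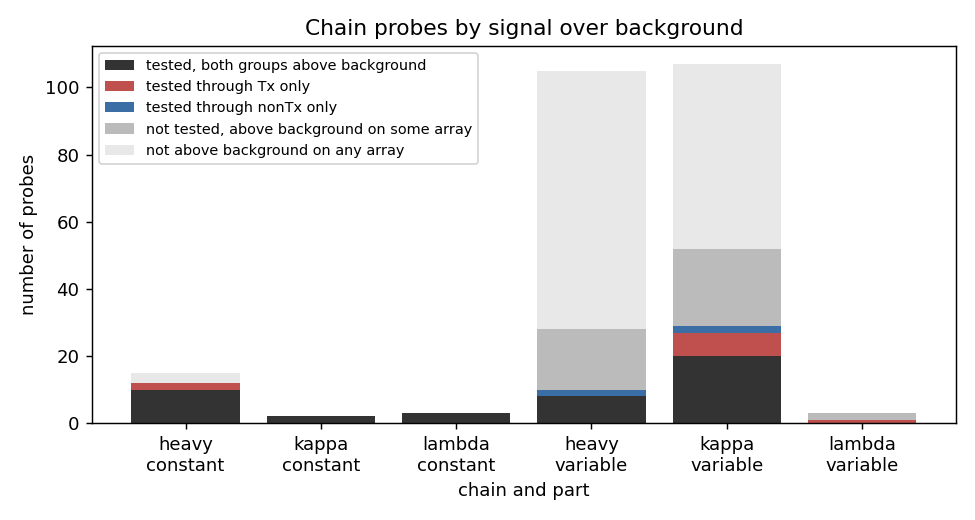
Number of probes (vertical axis) for each chain and part, stacked by whether the probe was well above background on enough arrays to be tested, and in which group. The 2 kappa and 3 lambda constant probes and 12 of the 15 heavy constant probes were tested, against 10 of 105 heavy variable and 29 of 107 kappa variable probes.

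The 40 tested variable probes were almost evenly divided, 21 higher and 19 lower in Tx, with a median of 0.21. Of these 40, 7 were higher on every Tx array (3.6% of all tested probes) and 1 was lower on every Tx array (4.02%). An unadjusted p under 0.05 was reached by 13 higher (5.63% of all tested probes) and 1 lower (7.18%). The share tested through Tx alone weighs on these counts. Over the 28 that passed through both groups, 13 were higher, 15 were lower and the median was -0.01. With signal well above background required on all 8 arrays, 19 variable probes were tested, their median was -0.02, 3 were above on every Tx array (3.99% of all probes under that filter) and 0 were below (3.53%). Without Tx replicate 2 the median of 33 variable probes was -0.09, with 4 above on every Tx array (7.01% of all probes in that fit) and 7 below (8.89%). Without any filter 166 of 215 were higher with a median of 0.25. Over all probes of the array treated in the same way, 33156 of 56599 were higher with a median of 0.07. Of the 215, 16 were above on every Tx array (3.54% of all probes) and 3 below (2.65%).

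At the heavy locus, 9 of the 10 tested variable probes were lower and 1 was higher, with a median of -0.23, and none of the 9 had an unadjusted p under 0.05. Over all 105 heavy variable probes without a filter 77 were higher (33156 of 56599 over all probes), with a median of 0.23. The sign of the median thus turned without the filter. Among probes annotated Ighv1, 3 of 48 were tested and were lower, 1 of them through nonTx alone, while 33 of all 48 were higher. Probes annotated Igh-VJ558 were counted apart, and the 1 of them that was tested was higher. Of the 29 tested kappa variable probes 19 were higher and 10 lower, with a median of 0.36. On every Tx array 5 were above (3.6% of all tested probes), but 7 of the 29 passed the filter through Tx alone. Over the 20 that passed through both groups, 12 were higher and 8 lower, with a median of 0.30. Of these 20, 2 were above and 1 was below on every Tx array, beside 3.6% and 4.02% of all tested probes. Over all 107 kappa variable probes 87 were higher, with a median of 0.27. The difference between the loci was not tested. Within kappa, the Igkv4 family was divided, 9 higher and 7 lower with a median of 0.23, while the 3 tested Igkv12 probes were higher with a median of 1.33. Of these 3 Igkv12 probes 2 passed the filter through Tx alone, and over all 6 probes of the family 5 were higher, 1 was lower and the median was 0.74.

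The 5 brightest variable probes belonged to kappa segments and their differences were small. The brightest, for Igkv4-72, had a scaled signal of 346.5, 335, 303 and 325 in nonTx and of 346, 406, 472 and 414 in Tx. It was higher by 0.32 ± 0.11 (limma, adjusted p = 0.332), with Tx replicate 1 within the nonTx range. A second Igkv4-72 probe went the other way, at -0.16 ± 0.16 (limma, adjusted p = 0.671). Igkv8-19 was at -0.11 ± 0.22 and Igkv4-71 at 0.14 ± 0.20 (limma, adjusted p = 0.840 and 0.766), and the sign of each turned without Tx replicate 2. Igkv4-50 had a scaled signal of 53.8, 45.02, 47.5 and 53.2 in nonTx and of 60.4, 66.5, 61.2 and 68.1 in Tx. Its groups did not overlap, at a difference of 0.36 ± 0.13 (limma, adjusted p = 0.333), or 0.20 with normexp.

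The largest differences among variable probes came from segments near background in nonTx liver. The tested Iglv1 probe had a scaled signal of 3.57, 5.05, 3.01 and 3.38 in nonTx and of 16.2, 32.4, 12.4 and 27.2 in Tx. It was well above background on 0 nonTx and 3 Tx arrays and was 4.23-fold higher against the floor (limma, adjusted p = 0.0870). Again this is no lower limit. The floor fold ran from 3.63 to 5.002 when each Tx array was left out. The log2 difference of 2.48 in the fit was 0.44 with normexp. Iglv1 encodes a lambda variable region, and a second Iglv1 probe that was not tested was also higher on every Tx array. Igkv12-44 had a scaled signal of 11.2, 8.62, 15.5 and 6.77 in nonTx and of 54.7, 71.2, 21.1 and 16.1 in Tx. Every Tx array was above every nonTx array, at a difference of 1.76 ± 0.48 (limma, adjusted p = 0.293), but 3 of the 4 nonTx arrays were not well above background and the difference with normexp was 0.58. Igkv9-124 was 2.76-fold higher against the floor (limma, adjusted p = 0.366), although Tx replicate 4 was below all nonTx arrays, and 4.502-fold without that array. Igkv12-41 was at 1.33 ± 0.55 (limma, adjusted p = 0.367), with Tx replicate 4 inside the nonTx range. All 4 of these probes passed the filter through Tx alone, and with normexp Igkv9-124 was at 0.39 and Igkv12-41 at 0.45.

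The most negative differences came from 4 kappa and heavy segments. Igkv4-54 had a scaled signal of 50.4, 40.1, 33.9 and 52.3 in nonTx and of 26.1, 23.9, 6.23 and 28.6 in Tx. It was the 1 tested chain probe lower on every Tx array, at -1.25 ± 0.45 (limma, adjusted p = 0.336), and Tx replicate 3 was far below the others. Ighv8-5 was at -1.12 ± 0.61, Igkv4-79 at -0.65 ± 0.33 and Ighv1-11 at -0.53 ± 0.29 (limma, adjusted p = 0.445, 0.430 and 0.447), all with overlapping groups. Ighv8-5 and Igkv4-79 passed the filter through nonTx alone. With normexp the 4 differences were -0.29, -0.11, -0.054 and -0.041 in the same order, and without Tx replicate 3 that of Igkv4-54 was -0.74 and that of Ighv8-5 was -0.53. That of Ighv1-11 was -0.33 without Tx replicate 1 and -0.35 without nonTx replicate 4.

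Other variable probes were singled out after their values were seen. The probe annotated Igh-VJ558, an older name for the J558 family of heavy variable segments, had a scaled signal of 34.2, 33.7, 34.7 and 37.8 in nonTx and of 73.0, 59.5, 70.7 and 62.4 in Tx. Both groups were tight and well apart, at 0.92 ± 0.13 (limma, adjusted p = 0.0870), and it was the 1 tested heavy variable probe that was higher. The other 2 probes with this annotation were not well above background on any array. Igkv12-46 had a scaled signal of 30.0, 25.6, 26.0 and 25.0 in nonTx and of 55.7, 108, 67.9 and 36.8 in Tx. It was higher on every Tx array and passed through both groups, at 1.23 ± 0.29 (limma, adjusted p = 0.258). Igkv1-122, at 0.92 ± 0.27, and Igkv1-133, at 0.70 ± 0.24, were higher on every Tx array (limma, adjusted p = 0.295 and 0.332). Unlike Igkv12-46, both of these probes passed the filter through Tx alone.

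The arrays of the Tx group did not share 1 pattern over the chains. For the 17 constant region probes the median deviation from the 8-array mean was -0.19, -0.57, -0.36 and -0.56 on nonTx replicates 1 to 4 and 0.40, 0.82, 0.11 and 0.31 on Tx replicates 1 to 4. All 4 Tx medians were above 0 and all 4 nonTx medians below 0. For the 40 variable probes the medians were -0.06, -0.07, -0.13 and -0.06 in nonTx and 0.04, 0.45, -0.26 and 0.04 in Tx. Here Tx replicate 2 was high and Tx replicate 3 was the lowest of the 8 arrays. Tx replicate 2 was the highest array for 11 of the 17 constant and 19 of the 40 variable probes.

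**Figure D5:**
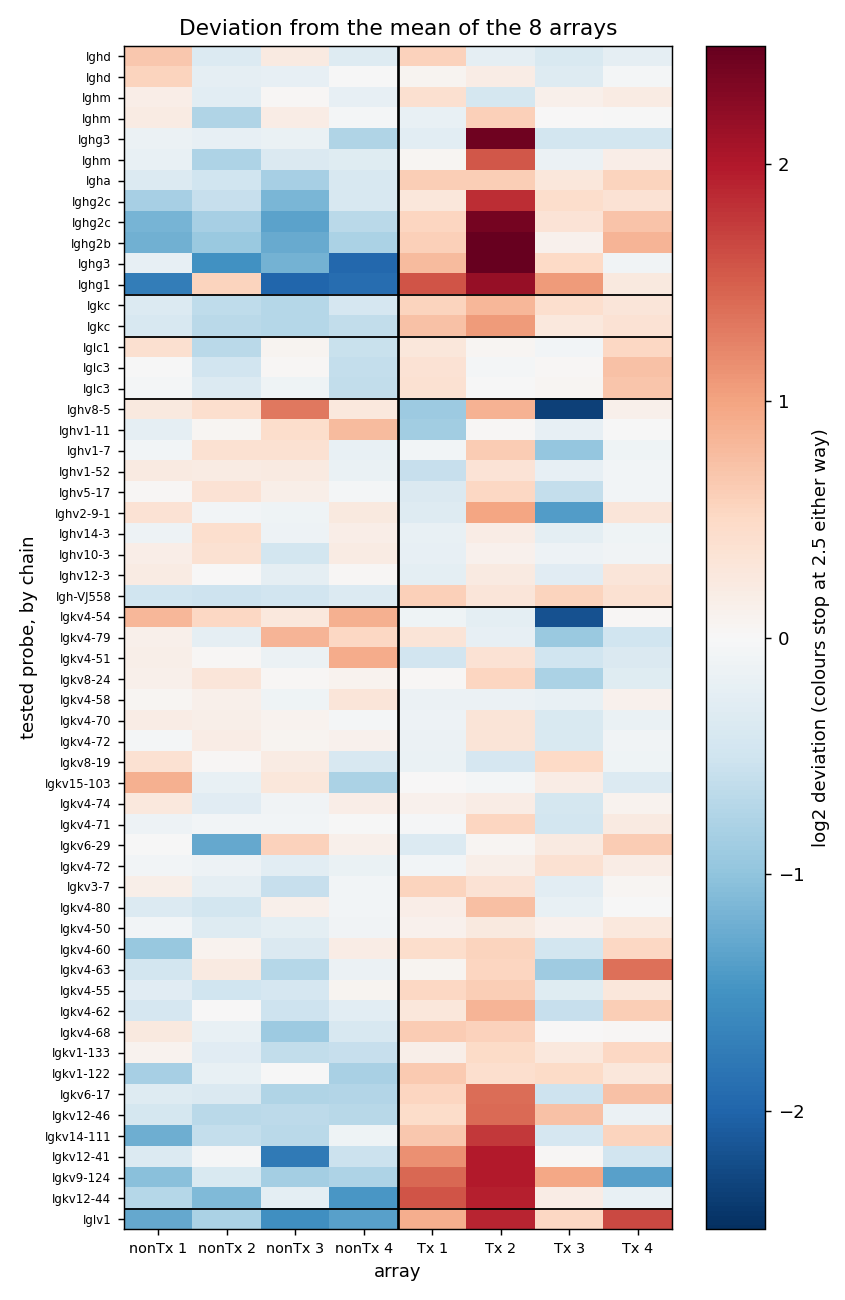
Deviation of each tested chain probe (one line per probe, ordered by chain) from its mean over the 8 arrays, on the log2 scale, with red for higher, blue for lower and colours stopping at 2.5 either way. The Tx side is red for most constant regions and strongest in Tx replicate 2, while the heavy variable lines are pale on both sides apart from single arrays.

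The 10 other matched probes carried a search term in their description or symbol but read no chain. Of these, 8 were tested, with 1 higher, 7 lower and a median of -0.11. Ighmbp2, which encodes a DNA and RNA helicase, was at -0.07 and -0.09, and Iglon5, a neuronal adhesion molecule, was at -0.17. Rbpj, the transcription factor of Notch signalling, was at -0.00, -0.13 and -0.92 on its 3 tested probes. The last of these passed through nonTx alone and had a standard error of 0.38 (limma, adjusted p = 0.368). Rbpjl, a relative of Rbpj, was at 0.11 and 1700018A04Rik was at -0.23. Igll1, which pairs with the heavy chain in pre-B cells, had no array with signal well above background.

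Genes whose products assemble, fold or carry antibodies were next compared. All 17 genes of this list were measured, 10 higher and 7 lower, with a median of 0.15, and 4 were above on every Tx array (3.6% of all tested probes). Of the 17, 5 higher (5.63% of all tested probes) and 1 lower (7.18%) had an unadjusted p under 0.05, and limma called 0 of them. Jchain, the joining chain that links IgA and IgM into polymers, had a scaled signal of 115, 119, 105 and 130 in nonTx and of 336, 456, 202 and 245 in Tx. Every Tx array was above every nonTx array. The difference was 1.34 ± 0.22, or 2.52-fold (limma, adjusted p = 0.122), and without Tx replicate 2 it was 1.12 (limma, adjusted p = 0.0292). With any other single array left out its adjusted p in limma ran from 0.0625 to 0.332. Mzb1, a chaperone of antibody secretion in the endoplasmic reticulum, had a scaled signal of 42.7, 25.8, 47.5 and 42.3 in nonTx and of 58.2, 60.6, 50.7 and 49.7 in Tx. It was higher on every Tx array, at 0.50 ± 0.20 (limma, adjusted p = 0.360), and was 0.31 without nonTx replicate 2 and 0.28 with normexp.

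The folding factors Ppib, a cyclophilin, and Pdia6, a disulfide isomerase, were higher on every Tx array by 0.27 ± 0.09 and 0.29 ± 0.11 (limma, adjusted p = 0.308 and 0.346). Hspa5, the chaperone that holds unpaired heavy chains, was at -0.09 ± 0.13. Pigr, the receptor that carries polymeric IgA across epithelia and into bile, was at -0.26 ± 0.17 on its brightest probe (limma, adjusted p = 0.495) and at -0.07 on the other. The groups overlapped on both Pigr probes. Exocrine pancreas cells are another type rich in folding factors. Of 13 markers of these cells 5 were measured, 4 higher and 1 lower, with a median of 0.32. Their summed signal was 10770 to 16760 in nonTx and 16470 to 25430 in Tx. Most of this sum was Cela1, at 7467 to 14400 in nonTx and 13840 to 19820 in Tx. The part of such cells in the folding factor values was not tested.

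The sequence before Jchain is shown because it was the 1 antibody component outside the chain loci with a difference of this size, and because Igll1 was the 1 chain with an entry in the RefSeq promoter table. The 250 bases upstream of its start, on the minus strand of GRCm38 at chr5:88527898-88528147, read 5′ to 3′ as follows.
Jchain: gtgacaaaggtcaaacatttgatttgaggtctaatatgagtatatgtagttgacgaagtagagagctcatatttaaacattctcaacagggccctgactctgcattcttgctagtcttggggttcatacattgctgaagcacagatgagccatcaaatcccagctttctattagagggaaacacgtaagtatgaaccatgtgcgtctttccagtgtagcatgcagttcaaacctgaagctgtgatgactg
The octamer ATGCAAAT, the motif of immunoglobulin promoters, and the E-box CAGGTG were searched on both strands, and neither was in this window, so no base is in capitals. The octamer was in 1.6% and the E-box in 17.2% of 32851 promoters of the same length.

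Genes that act on immunoglobulin loci and receptors that bind antibodies gave smaller or mixed values. Of 27 genes of rearrangement and class switching, 21 were measured, 14 higher and 7 lower, with a median of 0.07. Ung, a uracil glycosylase of base excision repair, was at 1.37 ± 0.39, Dntt, which adds bases at joints, at 1.14 ± 0.37, and Prkdc, a kinase of end joining, at -0.32 ± 0.10 (limma, adjusted p = 0.295, 0.324 and 0.308). Of these, Prkdc was lower on every Tx array, while the Ung and Dntt groups overlapped. Of 14 Fc receptor genes, 8 were measured, 2 higher and 6 lower, with a median of -0.02, and 0 had an unadjusted p under 0.05 in limma. Fcgr1, the high affinity IgG receptor, was at -0.18 ± 0.28, Fcgr4 at -0.12 ± 0.33 and the shared signalling chain Fcer1g at 0.04 ± 0.19.

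Markers of antibody-secreting cells and of B cells had median differences near 0. Of 20 antibody-secreting cell markers, 17 were measured, 12 higher and 5 lower, with a median of 0.11, and 3 higher (5.63% of all tested probes) and 1 lower (7.18%) had an unadjusted p under 0.05. Besides Jchain and Mzb1, which this list shares, the signal peptidase subunit Sec11c was higher on every Tx array, at 0.45 ± 0.11 (limma, adjusted p = 0.274). The thioredoxin family member Txndc11 was at -0.50 ± 0.15 (limma, adjusted p = 0.307). Prdm1, the regulator that defines plasma cells, was at -0.65 ± 0.31 (limma, adjusted p = 0.405). Several markers on this list, such as Xbp1 and Sdc1, are also made by hepatocytes.

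Of 20 B cell markers, 17 were measured, 7 higher and 10 lower, with a median of -0.03. The adaptor Blnk was at 0.57 ± 0.24, the complement receptor Cr2 at -0.48 ± 0.16 and the inhibitory receptor Cd22 at -0.31 ± 0.17 (limma, adjusted p = 0.375, 0.325 and 0.446). The summed B cell signal was 3136 to 3851 in nonTx and 3225 to 4277 in Tx, so the groups overlapped where the Ighg2c, Igha and Igkc probes did not. Bright probes weigh most in this sum, and Ralgps2 alone made up 1624 of the 3851 on nonTx replicate 1. In the same livers 15 of 18 T cell markers were lower, with a median of -0.56, and 7 of them were below on every Tx array (4.02% of all tested probes). The part of cell numbers in the constant region values was not tested.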

How the data were processed

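Liver RNA of 4 Tx and 4 nonTx samples was measured on one-colour (Cy3) arrays. The deposited intensity values are background-subtracted spot signals. Per the file headers they were written by Agilent Feature Extraction, release 10.7.1.1, whereas release 9.1 stands in the submitters' processing notes. The authors' deposited log2 values are the same intensities after percentile scaling and subtraction of each probe's median, as rebuilding them from the scanner values showed.

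Control spots were left out, spots marked as outliers set to missing (54 to 120 per array), and spots of one probe averaged. Each array's log2 intensity was set relative to its own 75th percentile over 59305 gene spots. Groups were compared in limma 3.58.1, using lmFit and eBayes (trended variance, 6 residual df), under R 4.3.3 with the data.table package (1.17.8). A probe needed signal well above background on 3 of 4 arrays of a group and at least 2 values per group. Between 51.1% and 57.1% of probes were well above background per array, array correlations ran from 0.977 to 0.994, and the number of arrays limits the precision. The fit was tested on simulated data.

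The members and lists were chosen with earlier results of these data known, and the salivary gland list was added after seeing the data. The genes named were each constant region by its brightest tested probe, the 5 brightest and the 4 largest and 4 smallest differences of tested variable probes, each match that is no chain, up to 3 genes of smallest p per list, and Jchain and Pigr; others were chosen after their values were seen, for Mzb1, Hspa5 and Prdm1 by their role. Some genes of the rule and lists are not reported here. Symbols in the files were updated by Entrez ID for 1276 of 43901 matched probes. The headers name another genome build than the reference at hand, so no probe coordinates are given.

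Replicate numbers were shared between groups and matched the slide column, and the labels named no pairs. Alternatives were normexp background correction (offset 50), quantile or median scaling, the authors' log2 values, other filters, outlier spots kept, other variance models, a replicate block, the mean of a region's probes and each array left out.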

Additional observations from a re-analysis of the deposited data

Results flagged for a closer look

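Of 52 groups of 4 arrays examined for the named chain probes and partners, 6 held 1 array whose gap to its nearest neighbour exceeded Dixon's 95% critical value as a share of the group's range; chance alone flags about 1 in 20 groups. Values are log2 relative to the array's 75th percentile. Ighg3 on Tx replicate 2 was at -0.66, against -3.55 to -3.36 on the other Tx arrays, which is the array that turned the sign of the Ighg3 difference. Ighg3 on nonTx replicate 4 was at -3.84, against -3.30 to -3.24. Ighg1 on nonTx replicate 2 was at -4.71, against -7.23 to -6.98, and it alone made the Ighg1 groups overlap. Ighd on Tx replicate 1 was at -0.53, against -1.49 to -1.32. Igkv4-54 on Tx replicate 3 was at -6.00, against -4.06 to -3.81. Ighv8-5 on nonTx replicate 3 was at -3.32, against -4.39 to -4.21.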

How the results depend on the processing

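The number of probes called by limma over the whole array, 0 as reported, was 1 with no variance trend, 2 with normexp, 6 with scaling to the median and 1 with the authors' log2 values. With each array left out it ranged from 0 to 196, the highest without Tx replicate 2, and it was 312 without Tx replicates 2 and 4 together, a setting added after seeing the data. The 6 calls under median scaling included 3 constant region probes, with adjusted p = 0.0281 for Igha and Igkc, and that scaling moved the median of all probes to 0.11. A replicate block gave 1 call, which was no chain. Same-numbered arrays lay in the same slide column, so this block was also a column block. The correlations of their deviations from the group means ran from -0.01 to 0.10.

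The count of constant probes above on every Tx array, 9, ranged from 8 to 10 with an array left out. Their median, 0.82, ranged from 0.64 to 0.89, and was 0.50 with normexp and 0.49 without Tx replicates 2 and 4. For variable probes the count, 7, ranged from 4 to 10, and was 16 with no filter and 3 with signal required on all arrays. Their median, 0.21, ranged from -0.090 to 0.31, below 0 without Tx replicate 1 (-0.072) or 2 (-0.090), and was -0.023 with signal on all arrays and -0.041 without Tx replicates 2 and 4. With normexp 33 of 40 variable probes were higher in place of 21, beside 18410 of 30957 over all tested probes in place of 14912. Signs turned for Ighd (-0.34 to 0.078 with an array left out, 0.036 without Tx replicates 2 and 4), Ighg3 (-0.076 to 0.89, and -0.043), Igkv4-71 (-0.021 to 0.31, and -0.18) and Igkv8-19 (-0.29 to 0.010, and 0.10), the last also with normexp (0.043) and median scaling (0.0041); the cause was not tested. A slide block could not be fitted, since all arrays were on 1 slide. Dim variable probes near background limit the variable counts.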
